A study of Mus musculus with 4 samples.

Results

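Binding sites of the transcription factors Insm1 and Neurod1 in mouse pancreatic beta cells were compared by how strongly each factor was scored at the same place. Each factor has 1 deposited site list from chromatin immunoprecipitation followed by sequencing (ChIP-seq), on the mm9 build of the mouse genome. Members are all sites wider than 60 bp in these lists: 17382 of 17453 Insm1 sites and 14183 of 14607 Neurod1 sites, or 31565 of the 60439 sites in the 3 lists that also include Foxa2. The score of a site is the authors' whole number of undefined scale. It was turned into a percentile rank within its own list, from near 0 for the weakest site to 100 for the strongest, and ranks rather than scores were set side by side.

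The cells are an established line from islets of RIP1-Tag2 mice aged 6 weeks, of mixed C57BL/6, 129/ola and CBA/J background. In these mice the rat insulin promoter drives simian virus T antigen, so the line stems from transformed beta cells and not from normal islets. All samples were grown at 25 mmol/l glucose and used at passages 10 to 15. They differ in the antibody: the one against Insm1 of Welcker et al., a Cell Signaling Technology antibody against Neurod1, a Santa Cruz antibody (sc-6554) against Foxa2, and IgG as the control. Each is a group of 1, the IgG library was not analysed here, and markers of the cell type cannot be read from site positions.

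Insm1 is a zinc finger factor of developing and mature endocrine cells, known for partnering with corepressor complexes. Neurod1, of the basic helix-loop-helix family, pairs with an E protein on E-box DNA and activates the insulin gene. Foxa2 is a forkhead factor able to bind nucleosomal DNA, and it is used here only to describe the sites of the other factors.

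The series speaks of replicates of Insm1 and Foxa2 and names none for Neurod1, and whether the lists of Insm1 and Foxa2 pool repeats is not stated. With 1 list per factor the spread between repeats cannot be read, so no test between factors was made and no p-value is given. Intervals are 95% Wilson intervals for shares and 95% Newcombe intervals for differences of shares. They cover the counting of sites alone, and neighbouring sites may not be independent. The number of reads behind a score is unknown. Positions are given as deposited and without genes, because no mm9 annotation or sequence was used here. After the width filter, scores ran from 76 to 3005 with a median of 130 for Insm1, and from 46 to 1428 with a median of 73 for Neurod1. The dropped sites reached scores of 3106 for Insm1 and 1523 for Neurod1, above every site kept. Ranks and places below count kept sites only. Around the width limit, 29 Insm1 sites of 61 to 65 bp had a median score of 141 and 23 sites of 56 to 60 bp had one of 130. The 308 Neurod1 sites of 61 to 65 bp and the 236 of 56 to 60 bp had medians of 56 and 54.

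Insm1 and Neurod1 sites matched one to one. A total of 9469 pairs overlapped by at least 1 bp, and no site of either list touched more than 1 site of the other. The pairs held 54.5% of Insm1 sites (53.7 to 55.2%) and 66.8% of Neurod1 sites (66.0 to 67.5%). Shared sites were the stronger ones on both sides, with a median rank of 66.1 against 32.7 for unshared Insm1 sites, and 58.8 against 34.2 for unshared Neurod1 sites.

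Ranks of the factors agreed loosely at shared pairs. The Spearman correlation between the scores was 0.47 over 9469 pairs, as a description of points that share chromatin, input material and site calling. The median gap between the ranks of a pair was 18.0 points in either direction. Ranks lay at most 10 points apart at 3057 pairs (32.3%, interval 31.3 to 33.2%), a share that depends on this limit. The correlation was 0.51 over the 6580 pairs that also overlapped a Foxa2 site and 0.30 over the 2889 pairs that did not. These sets also differ in strength: Foxa2 overlapped 52.6% of shared Insm1 sites in the weakest Insm1 decile and 83.6% in the strongest. Whether the correlations differ at equal strength was not tested.

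Strong sites of one list tended to be strong in the other, and weak sites weak. Of 2998 pairs with an Insm1 rank above 80, 1507 (50.3%, 48.5 to 52.1%) also had a Neurod1 rank above 80, and 146 (4.87%) had one of at most 20. Over all pairs these shares were 26.1% and 14.4%. Seen from the other list, 61.0% (59.0 to 62.9%) of the 2471 pairs with a Neurod1 rank above 80 had an Insm1 rank above 80, compared with 31.7% of all pairs. At the weak end, 267 of the 961 pairs with an Insm1 rank of at most 20 (27.8%, 25.04 to 30.7%) had a Neurod1 rank of at most 20, and 47 (4.89%) had one above 80. The median Neurod1 rank of these 961 pairs was 37.1, compared with 58.8 over all pairs.

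**Figure D1:**
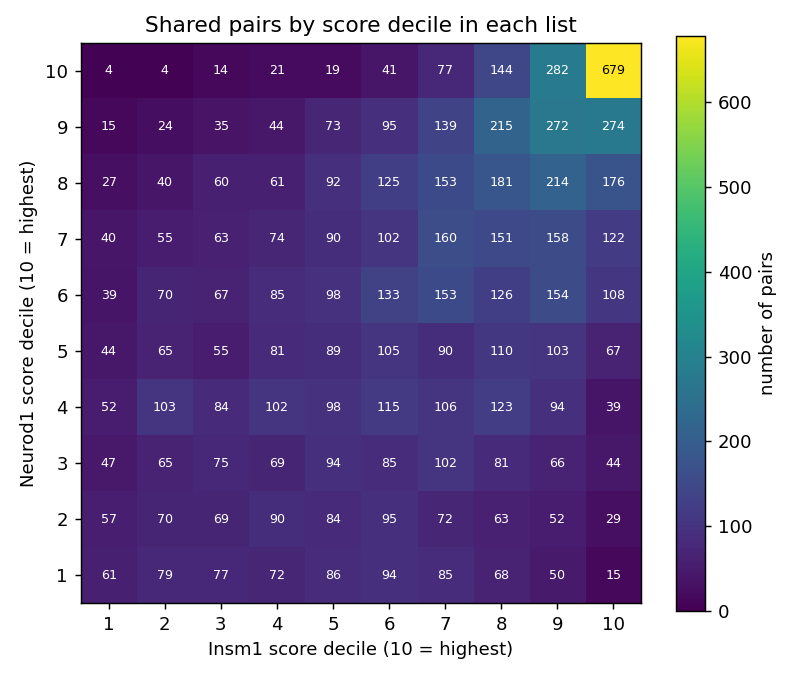
Number of shared pairs by Insm1 score decile (x axis) and Neurod1 score decile (y axis), with 10 the highest; each cell prints its count. Pairs gather in the upper right corner, where both factors rank high, and are few in the corners where one is high and the other low.

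The pairs strongest in both lists lay among the first 29 places of the Insm1 list and the first 16 of the Neurod1 list. At chr1:64627098-64627295 the Insm1 site scored 1256 (place 9) and the Neurod1 site scored 979 (place 6). The Insm1 site at chr4:149513251-149513413 scored 1225 (place 10), and its Neurod1 partner scored 1035 (place 5). On chromosome 13, the site at 116136946 to 116137192 had places 18 and 16. It was the single one of these 5 pairs without a Foxa2 site. The other pair of chromosome 13, at 118024467 to 118024669, had places 22 and 3, and the Insm1 site at chr5:23584737-23584905 and its partner had places 29 and 7. Summits of these 5 pairs were 11 to 101 bp apart, and the 4 Foxa2 sites found there ranked between 92.5 and 99.9 in the Foxa2 list.

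Pairs with opposed ranks were counted at a limit of 50 points. Their share depends on that limit, and the share that unrelated ranks would give was not computed. The Insm1 rank exceeded the Neurod1 rank by at least 50 points at 702 pairs, here called Insm1-leaning (7.41%, interval 6.90 to 7.96%). The reverse held at 310 pairs, called Neurod1-leaning (3.27%, 2.93 to 3.65%). Near the limit, 50 pairs leaned to Insm1 by 50 to 51 points and 44 by 49 to 50, and the corresponding counts for Neurod1 were 20 and 19. The size of the Insm1 excess depended on how ranks were counted. With ranks taken among the paired sites alone, the counts were 514 (5.43%) and 453 (4.78%). With the Insm1 list cut to the length of the Neurod1 list they were 510 and 427.

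The most Insm1-leaning pair lay on chromosome 17 at 26410077 to 26410230. Insm1 scored 723 there (rank 99.6), and Neurod1 scored 46 (rank 1.33), which is the lowest score in its list. The next 4 were the Insm1 sites at chr3:130441048-130441237 (ranks 98.5 for Insm1 and 4.18 for Neurod1), chr2:156995954-156996132 (99.2 and 7.07), chr16:23664493-23664694 (92.8 and 1.33) and chr5:20647620-20647780 (94.8 and 4.18). All 5 overlapped a Foxa2 site, with Foxa2 ranks between 70.2 and 95.4. Their Neurod1 sites were 107 to 213 bp wide, so these were not the narrowest kind of site. Neurod1 scores of these 5 pairs were 46 to 48, and 377 Neurod1 sites share the lowest score. The lowest decile spans scores of only 46 to 49 for Neurod1 and 76 to 86 for Insm1. Rank gaps among weak sites thus stand for small score gaps.

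The most Neurod1-leaning pair lay on the same chromosome at 48151642 to 48151795. Neurod1 scored 341 there (rank 98.2) in a site of 80 bp, and Insm1 scored 85 (rank 8.17). The following ones were the Insm1 sites at chr14:63008885-63009026 (ranks 2.56 for Insm1 and 92.3 for Neurod1), chr13:54795324-54795427 (5.26 and 94.3), chr8:87959684-87959801 (10.1 and 95.6) and chr11:59453830-59453980 (3.41 and 88.4). None of these 5 overlapped a Foxa2 site. The 5 pairs at each extreme were thus split by Foxa2, and the whole groups were compared next.

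Foxa2, which took no part in choosing the pairs, was compared between leaning and concordant pairs, over a background of 69.5% of all pairs. Concordant pairs with a mean rank in the span of the leaning pairs (25.7 to 73.3) overlapped a Foxa2 site in 761 of 1102 cases (69.1%, 66.3 to 71.7%). The share was 437 of 702 (62.3%, 58.6 to 65.8%) at Insm1-leaning pairs, which was lower by 6.81 points (difference -6.81, interval -11.3 to -2.32). At Neurod1-leaning pairs it was 174 of 310 (56.1%, 50.6 to 61.5%), with a difference of -12.9 points from concordant pairs (-19.1 to -6.83). These groups were not equal in strength: the median mean rank was 54.8 at the concordant pairs, 47.9 at Insm1-leaning and 46.3 at Neurod1-leaning pairs, and the Foxa2 share of concordant pairs rose from 57.3 to 76.4% over 4 bands of mean rank. Weighted over these bands by the leaning pairs, the difference was -4.09 points for Insm1-leaning pairs (-8.82 to 0.645), no longer clear of 0, and -9.48 points for Neurod1-leaning pairs (-15.8 to -3.13). In the lowest band the Neurod1-leaning share was above the concordant one, 67.7 against 57.3%. The 2 leaning groups differed from each other by 6.12 points (-0.405 to 12.7), within counting error. Over 12 alternative settings that difference ran from 0.0689 points, with the Insm1 list cut to the length of the Neurod1 list, to 15.4 points (5.79 to 24.8), with a limit of 60 points in place of 50. Its interval was clear of 0 in 6 of the 12.

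The rank of the Foxa2 site differed between the leaning groups. Where a Foxa2 site was there, its median rank was 77.5 (quartiles 53.4 and 90.8) at Insm1-leaning pairs, 73.8 at the concordant pairs of the same span and 61.9 (37.2 and 80.8) at Neurod1-leaning pairs. A Foxa2 site ranked above 50 in its list was found at 48.0% of Insm1-leaning pairs (44.3 to 51.7%) and 34.8% of Neurod1-leaning pairs (29.7 to 40.3%), 13.2 points apart (6.59 to 19.5). The difference was 4.80 points (-1.62 to 11.2) with the Insm1 list cut to the length of the Neurod1 list, where counting error spans 0, and 22.3 points with a limit of 60 points. Foxa2 sites ranked above 90 were found at 17.2% and 8.71% of the same groups, 8.53 points apart (4.02 to 12.5). These shares combine the presence of Foxa2 with its rank. At concordant pairs of the same span they were 51.5% above 50 and 14.6% above 90. Above 50, Insm1-leaning pairs differed from these by -3.54 points (-8.24 to 1.19) and Neurod1-leaning pairs by -16.7 points (-22.6 to -10.5). Above 90 the differences were 2.63 (-0.795 to 6.19) and -5.90 points (-9.35 to -1.74).

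**Figure D2:**
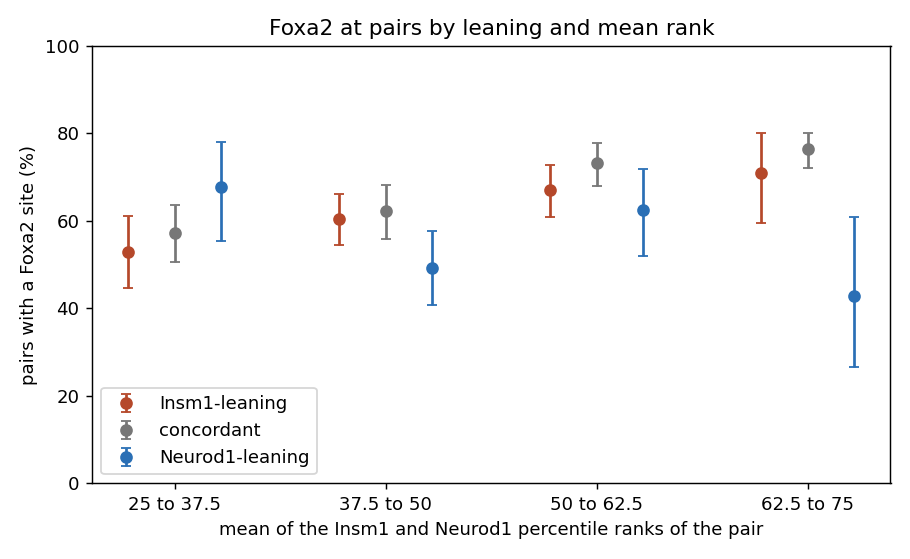
Share of pairs that overlap a Foxa2 site (y axis, percent, from 0) by mean rank of the pair (x axis) for Insm1-leaning, concordant (ranks at most 10 points apart) and Neurod1-leaning pairs; points are shares and bars are 95% Wilson intervals. In the lowest band Neurod1-leaning pairs had the highest share (67.7%, 62 pairs), and in the other 3 bands they had the lowest, down to 42.9% of 28 pairs.

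Summit distances, site widths and close neighbours of the pairs differed little between the leaning groups. Median distances between the Insm1 and Neurod1 summits were 30 bp in both, and 32 bp at concordant pairs of the same span. The 2 summits were at most 25 bp apart at 42.9% of Insm1-leaning and 45.8% of Neurod1-leaning pairs, a difference of -2.93 points (-9.56 to 3.66). Median widths of the Insm1 site were 175 and 182 bp, and those of the Neurod1 site 144 and 150 bp. An Insm1 neighbour within 5 kb was present at 12.3% of pairs in each group, with an interval of -4.69 to 4.13 points for the difference. A Neurod1 neighbour within 5 kb was present at 11.3% of Insm1-leaning and 14.2% of Neurod1-leaning pairs, a difference of -2.94 points (-7.76 to 1.35).

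Pairs on the X chromosome leaned to Neurod1. Of 95 X-linked pairs, 34 had the higher Insm1 rank (35.8%, 26.9 to 45.8%), compared with 5254 of 9374 autosomal pairs (56.0%, 55.0 to 57.1%), 20.3 points apart (10.2 to 29.2). Median ranks on X were 48.3 for Insm1 and 60.4 for Neurod1, whereas autosomal medians were 66.5 and 58.8. The X chromosome thus had a lower Insm1 rank and a like Neurod1 rank. Among autosomes the share of pairs with the higher Insm1 rank ran from 49.1% on chromosome 15 to 62.3% on chromosome 18, all above the X value. On X lay 2 of the 702 Insm1-leaning pairs (0.285%) and 6 of the 310 Neurod1-leaning pairs (1.94%), a difference of -1.65 points (-3.88 to -0.365). With only sites above the median score of each list, the difference between autosomes and X was 14.7 points (-2.58 to 29.4) and no longer clear of 0.

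Strong sites were rarely unshared. In the top decile of ranks, 182 of 1735 Insm1 sites (10.5%, 9.13 to 12.02%) had no Neurod1 site, over a background of 45.5% of all Insm1 sites. The corresponding count for Neurod1 was 133 of 1418 (9.38%, 7.97 to 11.01%), over a background of 33.2% of all Neurod1 sites. In the weakest decile 76.9% of Insm1 and 55.3% of Neurod1 sites were unshared. Unshared does not always mean far from the other factor: the other factor's summit lay within 1 kb of 52 of the 182 Insm1 sites (28.6%) and of 33 of the 133 Neurod1 sites (24.8%). It lay more than 100 kb away at 45 and 4 of them.

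Strong unshared sites of the factors differed in Foxa2. A Foxa2 site overlapped 123 of the 182 strong unshared Insm1 sites (67.6%, 60.5 to 74.0%) and 42 of the 133 strong unshared Neurod1 sites (31.6%, 24.3 to 39.9%), 36.0 points apart (25.1 to 45.7). Strong shared sites stood at 83.6% for Insm1 and 83.9% for Neurod1 (difference -0.246, -2.96 to 2.499). These sets are not separate, since 679 pairs are in the top decile of both lists. Among unshared Insm1 sites the Foxa2 share was 34.6% in the weakest decile of Insm1 score and 67.6% in the strongest. Among unshared Neurod1 sites it was 31.5% in the weakest decile and 31.6% in the strongest, and between 30.5 and 35.6% in all 10. When a Foxa2 summit within 1 kb counted in place of overlap, the strongest deciles stood at 81.9% for Insm1 and 61.7% for Neurod1, 20.2 points apart (10.2 to 30.02), and the weakest at 38.3% and 40.7%. Foxa2 near a strong unshared Neurod1 site was thus often beside it: 82 of 133 had such a summit and 42 overlapped a Foxa2 site. Median widths were 169.5 bp for the Insm1 and 153 bp for the Neurod1 sites. Without sites under 100 bp the difference in overlap was 23.9 points (11.3 to 35.5). With summits within 100 bp as the rule for sharing it was 24.5 points (15.7 to 33.02). Over 9 alternatives, taken singly, the difference ran from 20.2 to 46.0 points, with each interval clear of 0. In the top 5% it was 34.4 points by overlap (17.6 to 48.7). By Foxa2 summits within 1 kb, the top 5% stood closer, at 71 of 80 Insm1 sites (88.75%, 79.98 to 93.97%). For Neurod1 it was 45 of 57 sites (78.9%, 66.7 to 87.5%). These 2 intervals overlap, and no interval was computed for that difference, so whether nearness differs among the strongest sites is not settled.

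**Figure D3:**
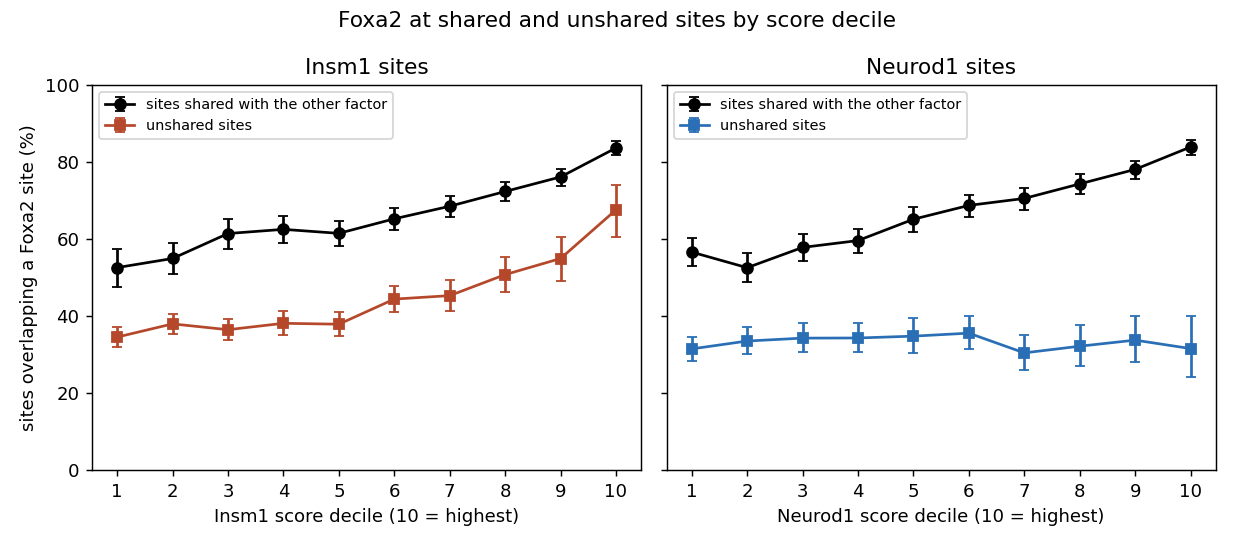
Share of sites overlapping a Foxa2 site (y axis, percent) by score decile (x axis) for Insm1 sites (left) and Neurod1 sites (right), shared with the other factor or not; bars are 95% Wilson intervals. Unshared Insm1 sites climb from 34.6 to 67.6%, unshared Neurod1 sites stay between 30.5 and 35.6%, and shared sites of both lists climb to about the same level, 83.6 and 83.9%.

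The highest-scoring unshared Insm1 site lay at chr3:5860626-5860746, with a score of 1508 (place 5) and the nearest Neurod1 summit 105761 bp away. A second site far from any Neurod1 summit (246319 bp) lay at chr5:50032771-50032917, with a score of 848. Both overlapped Foxa2 sites, ranked 93.9 and 83.2. The third, at chr17:79682524-79682622 with a score of 804, had a Neurod1 summit only 193 bp away and a Foxa2 site ranked 98.9. The fourth, at chr5:49650721-49650873 with a score of 736, stood 599 bp from a Neurod1 summit and had no Foxa2 site. The fifth was at chr14:38169192-38169357, with a score of 672 and a weak Foxa2 site ranked 9.99. Strong unshared Insm1 sites thus ranged from isolated ones to ones directly beside Neurod1.

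The highest unshared Neurod1 site was a narrow one of 68 bp at chr19:61275633-61275701, with a score of 1420 (place 2) and a Foxa2 site ranked 98.8. The next, at chr17:39981114-39981338, scored 1133 (place 4), had no Foxa2 site and stood about 1076970 bp from the nearest Insm1 summit. The third, at chr5:49651371-49651529 with a score of 526, overlapped a Foxa2 site ranked 96.3. It is the neighbour of the fourth Insm1 site above: strong sites of the 2 factors lay there side by side, with summits 599 bp apart. Sites at chr12:30211338-30211430 (score 510) and chr18:79247730-79247806 (score 482) followed, neither with Foxa2, and 4189 and 86 bp from an Insm1 summit. Of these 5 sites, 3 were 68 to 92 bp wide, whereas the median width of Neurod1 sites was 149 bp. Repeat regions were not filtered out here, and whether any of these sites lies in one was not tested.

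Neurod1 sites had close neighbours more often than Insm1 sites, and neighbours within 100 kb less often. The median distance to the nearest summit of the same list was 25426 bp for Insm1 (quartiles 9840 and 62844 bp) and 26147 bp for Neurod1 (9061 and 72413 bp). A neighbour within 5 kb was present at 2124 Insm1 sites (12.2%, 11.7 to 12.7%) and 2104 Neurod1 sites (14.8%, 14.3 to 15.4%), a difference of 2.62 points (1.86 to 3.38) although the Neurod1 list is shorter. Without sites under 100 bp the shares were 11.8% and 12.4%, and their difference of 0.564 points (-0.211 to 1.35) was not clear of 0. A neighbour within 100 kb was present at 85.04% of Insm1 and 81.7% of Neurod1 sites, a difference of -3.32 points (-4.15 to -2.498). Summits closer than 1 kb were rare, at 33 Insm1 and 56 Neurod1 sites, and the smallest distances were 489 and 681 bp.

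Close spacing went with sharing in opposite directions. Among Insm1 sites, 13.6% of shared and 10.6% of unshared ones had an Insm1 neighbour within 5 kb (difference 3.06 points, 2.09 to 4.03). Among Neurod1 sites, 13.9% of shared and 16.6% of unshared ones had a Neurod1 neighbour (difference -2.69 points, -3.98 to -1.43). At the strong unshared sites the lists were further apart in this share, with 13 of 182 for Insm1 (7.14%, 4.22 to 11.8%) and 27 of 133 for Neurod1 (20.3%, 14.3 to 27.9%), a difference of -13.2 points (-21.3 to -5.57). In both lists strong sites had close neighbours more often than weak ones. Between ranks above 80 and ranks of at most 20 the shares were 13.8% and 11.5% for Insm1, and 18.6% and 13.5% for Neurod1.

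**Figure D4:**
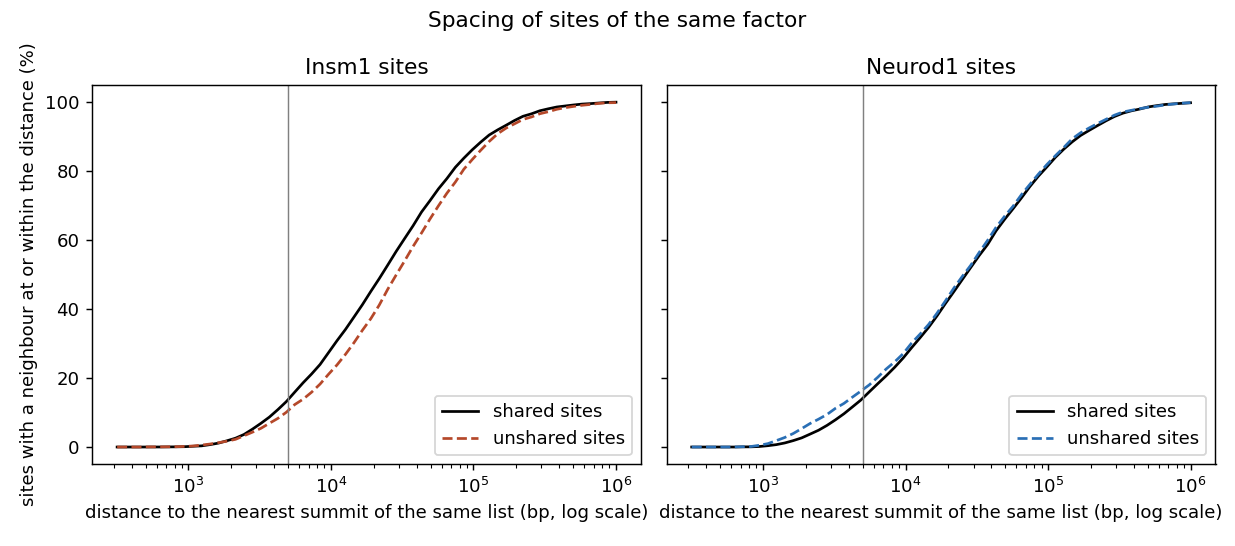
Share of sites (y axis, percent) with another summit of the same list at or within a distance (x axis, bp, log scale) for Insm1 (left) and Neurod1 (right); the grey line marks 5 kb. Shared Insm1 sites run above unshared ones over most distances, and at 5 kb the order is the reverse for Neurod1 (13.9% shared, 16.6% unshared).

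Chains of sites, with neighbouring summits at most 5 kb apart, were short. The Insm1 list held 1022 chains of 2 or more sites, of which 948 had 2 sites, and the Neurod1 list held 991, of which 890 had 2. The longest chain of both lists was the same place on chromosome 3, at 96359242 to 96373739 for Insm1: 5 Insm1 and 5 Neurod1 sites, all shared, with 4 Foxa2 sites. Ranks in it were moderate, from 9.12 to 63.7 for Insm1 and from 12.05 to 66.7 for Neurod1. A second Neurod1 chain of 5 sites lay at chr2:179064832-179078984, with 4 of them shared and a top rank of 99.7. An Insm1 chain of 4 at chr4:149502963-149513413 ended in one of the pairs strongest in both lists, and its median rank was 25.3. The other named chains, of 4 sites each, lay at chr2:37725220-37735336 for Insm1 (4 shared) and at chr9:59504124-59516022 for Neurod1 (1 shared).

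Neighbouring pairs resembled each other weakly in leaning and not in strength. Over 428 adjacent pairs at most 5 kb apart, the Spearman correlation of the rank difference was 0.12, and over 1295 adjacent pairs 5 to 20 kb apart it was 0.10. At 20 to 100 kb it was 0.02 (3003 adjacent pairs) and beyond 100 kb 0.00 (4723). The corresponding correlation of the mean rank was -0.02, 0.03, 0.03 and 0.01. These are weak correlations over points that share regions and libraries, given as a description. The rank difference had the same sign at 57.0% of adjacent pairs within 5 kb (52.3 to 61.6%) and at 51.2% beyond 100 kb (49.8 to 52.6%).

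At the scale of 1 Mb the factors followed each other closely. Of 2651 bins up to the last site of the 3 lists on each chromosome, 2109 held sites of both factors, 117 held Insm1 alone, 42 held Neurod1 alone and 383 held neither. Where a single factor was present, a bin held at most 7 Insm1 or 4 Neurod1 sites. The Spearman correlation between the counts was 0.93 over all bins and 0.58 over the 599 bins with at least 20 sites of both lists together. The Spearman correlation of each factor with Foxa2 counts was 0.82 for Insm1 and 0.81 for Neurod1. Bins share stretches of chromosome and the same site calling, and the shared pairs enter both counts. The densest 10% of bins for each factor held 28.8% of Insm1 and 31.5% of Neurod1 sites.

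**Figure D5:**
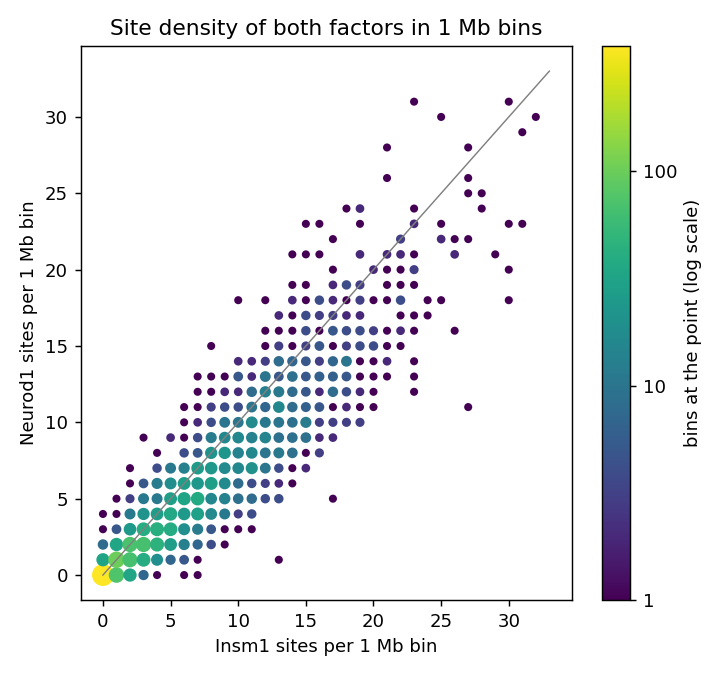
Insm1 sites (x axis) against Neurod1 sites (y axis) per 1 Mb bin; a point stands for all bins with those counts, with size and colour by their number, and the grey line marks equal counts. Points follow the line up to 32 Insm1 and 31 Neurod1 sites, and bins with many sites of one factor and none of the other are missing.

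The 5 bins with most sites of both lists together were named, a choice that favours high counts of both factors. They held 18 to 22 shared pairs each, and each pair enters both counts. The fullest was chr8:129000001-130000000 with 32 Insm1 and 30 Neurod1 sites, of which 21 formed pairs, and with 44 Foxa2 sites. It was followed by chr3:51000001-52000000 (30 Insm1 and 31 Neurod1 sites), chr5:124000001-125000000 (31 and 29), chr4:148000001-149000000 (25 and 30) and chr17:56000001-57000000 (27 and 28). Median rank differences of the pairs in these 5 bins ran from -3.75 to 6.37 points, so that none leaned far to one factor.

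The Insm1 share of the fuller bins spread around the common ratio. Insm1 made up 55.1% of the sites of both lists, and its share in the 599 bins ranged from 34.8 to 77.3%, with a median of 54.2%. The interval of a bin was clear of 55.1% in 3 bins (0.501%), above it in 2 and below it in 1. These intervals treat sites as independent, whereas each shared pair adds 1 site of each factor to its bin. They are therefore too wide here, and the low count does not show how even the ratio is. The highest shares were in chr19:55000001-56000000 (17 Insm1 and 5 Neurod1 sites, 77.3%, interval 56.6 to 89.9%), chr9:50000001-51000000 (27 and 11, 71.1%, 55.2 to 83.0%) and chr5:24000001-25000000 (14 and 6, 70.0%, 48.1 to 85.5%). Of these, the bin on chromosome 19 held 25 Foxa2 sites and the one on chromosome 9 held 27. The lowest shares were in chr4:151000001-152000000 (8 Insm1 and 15 Neurod1 sites, 34.8%), chr13:117000001-118000000 (7 and 13, 35.0%) and chr11:118000001-119000000 (10 and 18, 35.7%, 20.7 to 54.2%). Pairs in the 3 bins of highest Insm1 share had median rank differences (Insm1 minus Neurod1) of -3.63, 7.61 and -1.21 points, and those in the 3 of lowest share -2.69, -5.02 and -8.95 points. With 4 to 10 pairs a bin, these medians are descriptions only.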

How the data were processed

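ChIP-seq site lists of Insm1 and Neurod1, with Foxa2 as annotation, were used from 3 of 4 samples. The tools named, per the submitters' processing notes, are CASAVA, Bowtie 0.12.7 and MACS 1.4, on mm9. Their settings, thresholds, use of the control, and how repeat libraries entered a list: not given in the sources used here. Each list the authors deposited has 5 columns without header, read as chromosome, start, end, summit and a score of undefined unit. Library depth is unknown.

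Sites of 60 bp or less were dropped in each list, scores were ranked (ties averaged), and sites were paired by overlap of at least 1 bp. No filter for repeat regions was applied here. Named sites, pairs, chains and bins are the extremes of each comparison: 5 pairs or unshared sites, 3 chains, and 5 or 3 bins per set. The Foxa2 comparisons of unshared top-decile sites and of Foxa2 ranks above 50, that of X with autosomes and the weighting by bands of mean rank were added after seeing the data. Differences in the share with a neighbour within 5 kb and the setting with Foxa2 summits within 1 kb were also not planned. The plan did not name Foxa2 ranks above 90, neighbours within 100 kb or the correlations between adjacent pairs. Members, lists and comparisons were chosen with earlier results of these data known. Code was tested on simulated lists. Computation used scipy 1.17.1, numpy 2.4.6, pandas 2.3.3 and matplotlib 3.10.9 under Python 3.11.15. Alternatives are given in the closing section.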

Additional observations from a re-analysis of the deposited data

How the results depend on the processing

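Of 134 values of 23 results under 20 alternative settings, 99 stayed within 1.5 times (counts) or within the interval (differences and correlations) and 35 moved further. None reversed, but by this rule a count could not reverse, nor could a difference whose main interval spans 0. With each list above its median, the X-chromosome difference fell to 14.7 points, with an interval that spans 0.

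With each list limited to sites above its median score, which removes sites by construction, 4338 pairs were left, with 1277 concordant and 381 Insm1-leaning pairs, a rank correlation of 0.38, 77 strong unshared Neurod1 sites, 610 Insm1 and 636 Neurod1 sites with a neighbour, and a bin correlation of 0.86. Without sites under 100 bp, 79 strong unshared Neurod1 sites were left, the Foxa2 difference between strong unshared sites was 23.9 points, the bin correlation was 0.92, and the Neurod1 excess in neighbours within 5 kb was 0.564 points. That Foxa2 difference was 24.5 points with summits within 100 bp as the rule for sharing, 46.0 points with sites widened by 500 bp and 20.2 points with Foxa2 summits within 1 kb. With the Insm1 list cut to the Neurod1 length, the rank correlation was 0.46, the bin correlation 0.93, and the difference in Foxa2 sites ranked above 50 was 4.80 points. The bin correlation was 0.94 without X and Y, 0.90 in bins of 0.5 Mb and 0.97 in bins of 5 Mb.

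Other limits change counts by construction. A limit of 40 points gave 1190 Insm1-leaning and 606 Neurod1-leaning pairs, and 60 points gave 364 and 140, with Foxa2 differences of 15.4 points for any site and 22.3 for sites ranked above 50. A limit of 20 points gave 5111 concordant pairs. The top 5% held 80 unshared Insm1 and 57 unshared Neurod1 sites. Neighbours within 2 kb were found at 358 Insm1 and 576 Neurod1 sites, and within 20 kb at 7429 and 6107. Where the setting itself does not remove sites or change a limit, the cause was not tested. Unknown depth, undefined scores and 1 list per factor limit all comparisons. No paired analysis was possible because each factor has 1 list.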

Other observations

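Along the autosomes Insm1 made up between 53.1% of the sites of both lists, on chromosome 17, and 56.9%, on chromosome 14. On X it made up 49.6% (44.3 to 54.8%), with 169 Insm1 and 172 Neurod1 sites. No strong unshared site of either factor lay on X, where the strong shared sites numbered 5 for Insm1 and 9 for Neurod1. Over all chromosomes 10.5% and 9.38% of strong sites were unshared, so counts this small do not set X apart. On that chromosome 95 of the 172 Neurod1 sites (55.2%) had an Insm1 partner. On the autosomes that share ran from 61.9% on chromosome 4 to 70.5% on chromosome 14. No interval was computed for these shares by chromosome, so whether X stands apart in them was not tested. The share of Insm1 sites with a Neurod1 partner was 56.2% on X, and within 52.0 to 57.6% on the autosomes.

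At the very top of the lists, 18 of the 174 Insm1 sites ranked above 99 were unshared (10.3%, 6.64 to 15.8%), and 15 of these 18 overlapped a Foxa2 site. Of the 142 Neurod1 sites ranked above 99, 9 were unshared (6.34%, 3.37 to 11.6%), and 3 of these 9 overlapped a Foxa2 site. Where Foxa2 was present at strong unshared sites, its median rank in the Foxa2 list was 74.3 at the 123 Insm1 sites and 88.9 at the 42 Neurod1 sites. The median distance to the nearest summit of the other factor was 21545 bp from strong unshared Insm1 sites and 7316 bp from strong unshared Neurod1 sites.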
